A study of Mus musculus with 12 samples.

Results

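The genes examined were 10 components of PDGF, FGF, and EGF mitogen signalling, namely the 4 growth factor receptors *Pdgfra*, *Pdgfrb*, *Fgfr1*, and *Egfr*, the 4 PDGF ligands *Pdgfa*, *Pdgfb*, *Pdgfc*, and *Pdgfd*, and the ligands *Fgf2* and *Hbegf*. They were taken by symbol from the 52636 genes of the count table, and all 10 passed the filter on low counts. In SMCs without the TGF-β receptors, *Hbegf* was 3.0-fold lower than in SMCs with intact receptors, and *Pdgfa* and *Pdgfc* were lower by 1.67-fold and 1.51-fold. None of the 4 receptors and none of *Pdgfb*, *Pdgfd*, and *Fgf2* passed the test. The *Hbegf* difference also passed with the 2 libraries of each animal summed, whereas those of *Pdgfa* and *Pdgfc* did not.

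The libraries were bulk RNA-seq of GFP+ SMCs sorted from enzymatically digested aortas of C57BL/6J mice at 12 weeks of age, 3 animals of each genotype, with the ascending aorta and arch and the descending thoracic aorta kept apart. Both genotypes carried a tamoxifen-inducible Cre driven by *Myh11* and the mT/mG reporter, which turns from Tomato to GFP after recombination. GFPiSMC mice had intact receptors, and Tgfbr1/2iSMCKO mice carried in addition floxed *Tgfbr1* and *Tgfbr2* on both chromosomes. The Cre transgene lies on the Y chromosome, so the animals were male. Both genotypes received tamoxifen for 5 days. The profiling is described as made soon after induction in mature mice, which corresponds to 2 mg/d at 11 weeks, although the sample labels also name 1 mg/d at 4 weeks. Because the floxed alleles are absent from GFPiSMC mice, the mouse line and the deletion cannot be told apart. Each of the 4 groups held 3 libraries from 9208 to 20000 sorted cells.

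PDGF, FGF, and EGF family ligands act through receptor tyrosine kinases that dimerize when bound and activate the Ras-ERK and PI3K pathways. PDGF receptor β is the main PDGF receptor of vascular SMCs, whereas PDGF receptor α is typical of fibroblasts. PDGF-AA and PDGF-CC bind mainly receptor α, PDGF-DD binds mainly receptor β, and PDGF-BB binds both. FGF2 lacks a classical signal peptide, and heparin-binding EGF-like growth factor (HB-EGF, the product of *Hbegf*) is shed from the membrane by ADAM proteases before it binds the EGF receptor.

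Total counts ranged from 20467027 to 31392396 per library. Levels are given as CPM, the count scaled to the TMM-adjusted size of its library, and levels of different genes are compared only as CPM per kb of exon. The deletion could not be checked here, since the counts cover whole genes and not the floxed exons: *Tgfbr1* and *Tgfbr2* had log2 differences of 0.10 (SE 0.12, adjusted p = 0.79) and −0.26 (SE 0.11, adjusted p = 0.233), both by edgeR. The labelled cell type showed its markers, with the 8 smooth muscle markers summing to 33930 to 47850 CPM. The 12 fibroblast markers summed to 40.1 to 289.8 CPM, the 10 endothelial markers to 90.3 to 173.3 CPM, the 10 macrophage markers to 12.9 to 60.5 CPM, and the 6 Schwann cell markers to 7.24 to 36.6 CPM. The macrophage marker *Adgre1* was at 0 in all 3 libraries of 1 of the 4 groups, and the adipocyte marker *Cidec* in those of 2 groups. In these bulk libraries, fewer cells of a type and less RNA per cell cannot be told apart. Between genotypes, 2 of 10 endothelial markers were called, both higher in Tgfbr1/2iSMCKO libraries: *Cdh5* (log2 difference 2.97, adjusted p = 0.025, and 0.0365 on sums per animal) and *Esam* (0.84, adjusted p = 0.0398, and 0.27 on sums), with a list median of 0.81 and sums of 90.3 to 133.2 CPM in GFPiSMC and 97.3 to 173.3 CPM in Tgfbr1/2iSMCKO libraries. *Cdh5* lay near the floor, with 0 to 79 counts per library. Its mean was 0.169 CPM in GFPiSMC and 1.26 CPM in Tgfbr1/2iSMCKO libraries, and the ranges overlapped. *Pecam1*, the endothelial marker with the highest CPM, had means of 79.3 CPM and 72.5 CPM and was not called. Of 11 tested fibroblast markers, *Serpinf1* (−1.58, adjusted p = 0.00646) and *Col14a1* (−0.82, adjusted p = 0.0316) were called lower, with a list median of 0.24. Of the adipocyte and pericyte markers, *Rgs5* and *Cspg4* fell and *Kcnj8* rose in Tgfbr1/2iSMCKO libraries, and the sum of the 7 ranged from 2991 to 5703 CPM in GFPiSMC and from 1371 to 3145 CPM in Tgfbr1/2iSMCKO libraries. *Rgs5* made up most of that sum, with a mean of 3880 CPM in GFPiSMC and 1360 CPM in Tgfbr1/2iSMCKO libraries. No smooth muscle, macrophage, or Schwann cell marker was called between genotypes. The part of other cell types in the genotype differences below was not tested.

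Per kb of exon, *Pdgfd* had the highest level of the 10 genes in both genotypes. Its median was 90.7 CPM per kb over the 6 GFPiSMC libraries and 76.3 CPM per kb over the 6 Tgfbr1/2iSMCKO libraries, and in neither genotype did its range overlap that of the next gene. In GFPiSMC libraries *Pdgfa* (24.5 CPM per kb), *Pdgfrb* (20.8), *Hbegf* (18.0), and *Fgfr1* (14.8) followed as medians, and neighbours in that order overlapped. *Pdgfc* (8.47), *Fgf2* (5.25), and *Egfr* (2.71) came next with overlapping ranges, and *Pdgfb* (1.64) and *Pdgfra* (1.09) were the lowest and overlapped each other. In Tgfbr1/2iSMCKO libraries the order was *Pdgfd*, *Pdgfrb*, *Pdgfa*, *Fgfr1*, *Hbegf*, *Pdgfc*, *Fgf2*, *Egfr*, *Pdgfra*, and *Pdgfb*. *Hbegf* stood there at a median of 5.75 CPM per kb, below *Fgfr1* (11.9) without overlap.

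**Figure D1:**
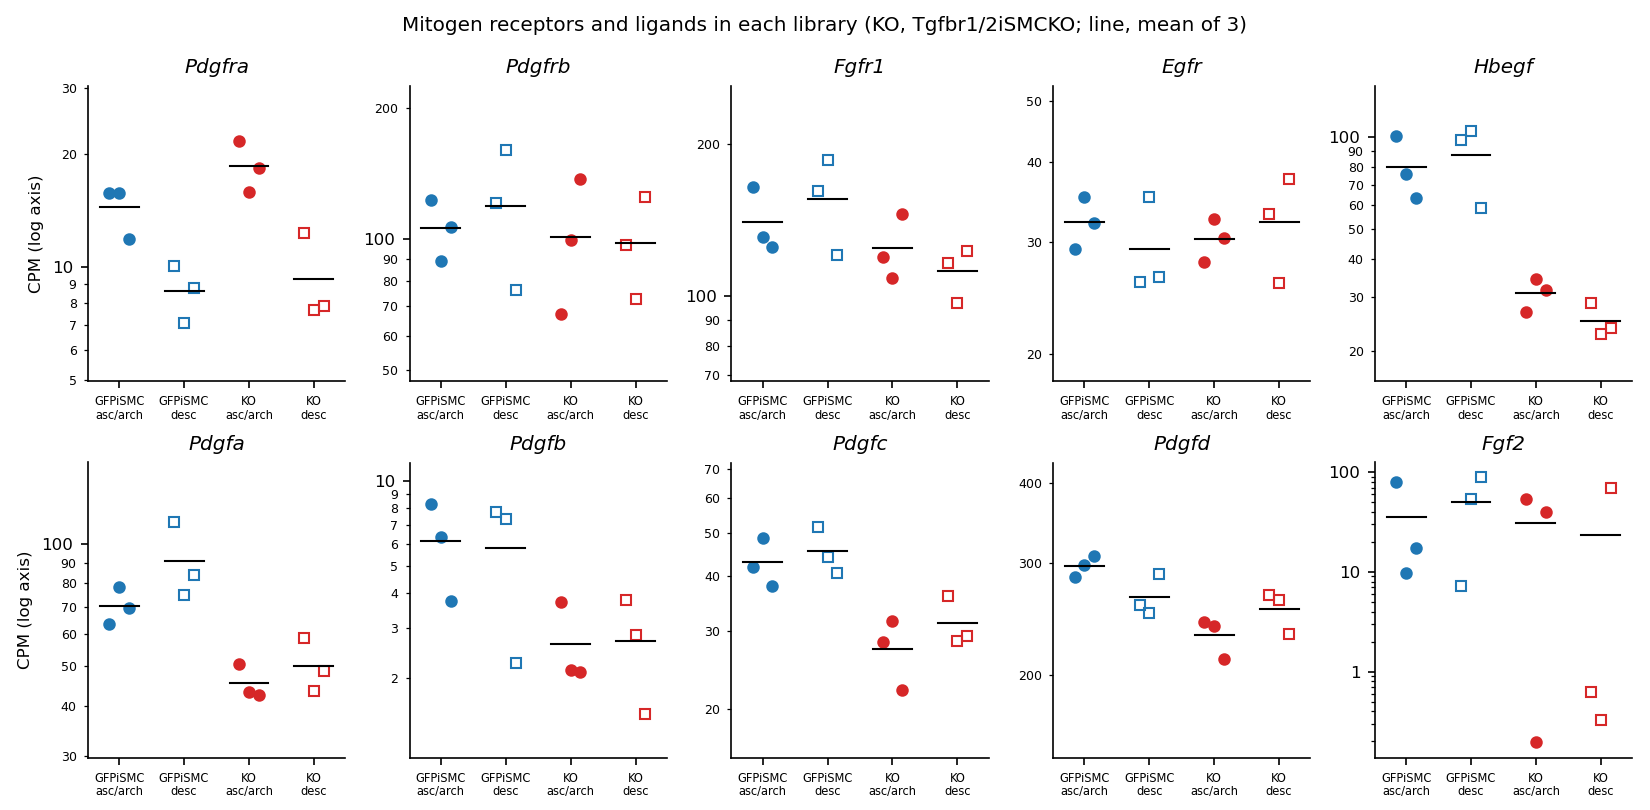
CPM of each of the 10 genes in every library, each panel with its own logarithmic axis; circles are ascending/arch and squares descending libraries, blue GFPiSMC and red Tgfbr1/2iSMCKO (KO), and lines are means of 3 libraries. *Hbegf*, *Pdgfa*, and *Pdgfc* are lower in all 6 Tgfbr1/2iSMCKO libraries than in any GFPiSMC library, and *Fgf2* varies from 0.194 to 89.5 CPM.

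The comparison of Tgfbr1/2iSMCKO with GFPiSMC over all 12 libraries asked which of these genes differ when SMCs lose both TGF-β receptors. By edgeR's quasi-likelihood test, fitted with a segment term and adjusted by Benjamini-Hochberg over 22320 genes, 3 of the 10 genes were lower at an adjusted p under 0.05 and 0 were higher. Among all genes tested, 3.23% were called lower and 1.8% higher. The median log2 difference of the 10 genes was −0.46, against 0.04 over all genes, and 8 of 10 were below 0. The same 3 genes were the ones whose 6 Tgfbr1/2iSMCKO libraries all lay below the 6 GFPiSMC libraries, which 2.89% of all genes did. With the study's further requirement of more than 2-fold, *Hbegf* remained, against 1.64% of all genes called lower. Each animal gave 2 libraries, which share that animal. With these summed, *Hbegf* was again called, against 1.25% of all genes called lower. Permutation of the animal labels, enumerated exactly and read two-sided, has 0.1 as its smallest p with 3 animals a side. It gave 0.1 for *Hbegf*, *Pdgfa*, *Pdgfc*, and *Pdgfd*, although the libraries of *Pdgfd* overlapped between genotypes. The share of all genes at this value was not counted.

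**Figure D2:**
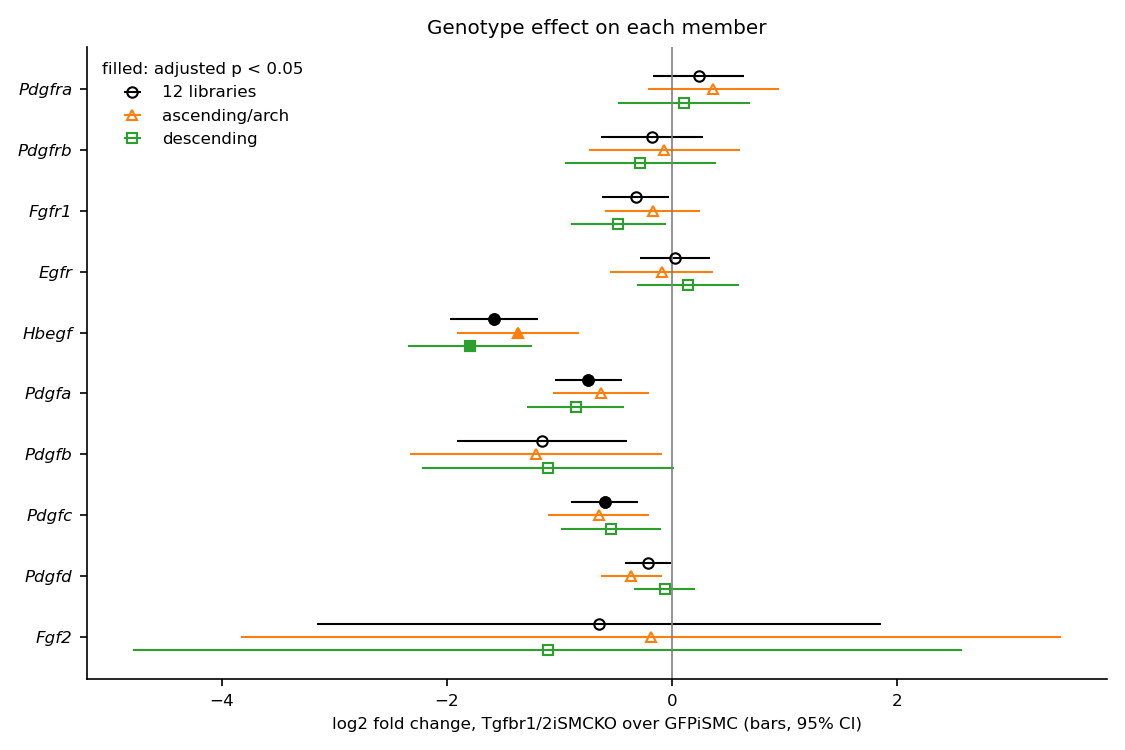
Log2 fold change of Tgfbr1/2iSMCKO over GFPiSMC for each gene, over 12 libraries (black circles), in the ascending/arch segment (orange triangles), and in the descending segment (green squares), with 95% CIs; filled symbols have an adjusted p under 0.05. *Hbegf* is the gene with filled symbols in all 3 comparisons, at −1.58, −1.37, and −1.80, and *Fgf2* has the widest intervals.

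The receptors gave no call. *Pdgfrb* (chr18:61045150-61085061, plus strand, GRCm38), which encodes PDGF receptor β, was at 122.6, 88.8, and 106.4 CPM in the ascending/arch and 121.0, 160.1, and 76.5 CPM in the descending GFPiSMC libraries of replicates 1, 2, and 3. Its Tgfbr1/2iSMCKO levels were 67.3, 99.3, and 136.9 CPM in the ascending/arch and 96.8, 73.0, and 124.5 CPM in the descending libraries. The genotypes overlapped across most of their ranges, and the log2 difference was −0.17 (SE 0.21, 95% CI −0.63 to 0.28, adjusted p = 0.803).

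*Pdgfra* (chr5:75152292-75198215, plus strand), which encodes PDGF receptor α, was at 15.7, 15.7, and 11.9 CPM in ascending/arch and 10.1, 7.08, and 8.80 CPM in descending GFPiSMC libraries. Its Tgfbr1/2iSMCKO levels were 21.7, 15.8, and 18.4 CPM in the ascending/arch and 12.3, 7.67, and 7.89 CPM in the descending libraries. The genotypes overlapped over all libraries, with a log2 difference of 0.24 (SE 0.19, 95% CI −0.16 to 0.64, adjusted p = 0.643). Per kb of exon, *Pdgfrb* exceeded *Pdgfra* in every library, from 5.68 times to 41.4 times.

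*Fgfr1* (chr8:25513654-25575718, plus strand), which encodes FGF receptor 1, ranged from 120.8 to 185.8 CPM with a median of 146.2 CPM in GFPiSMC and from 97.1 to 145.6 CPM with a median of 118.0 CPM in Tgfbr1/2iSMCKO libraries. Its log2 difference was −0.32 (SE 0.14, 95% CI −0.62 to −0.03), with an unadjusted p of 0.0355 and an adjusted p of 0.256 by edgeR. *Egfr* (chr11:16752203-16918158, plus strand), which encodes the EGF receptor, ranged from 25.9 to 35.3 CPM in GFPiSMC and from 25.9 to 37.6 CPM in Tgfbr1/2iSMCKO libraries. Its log2 difference of 0.03 (SE 0.14, adjusted p = 0.965) had a 95% CI from −0.29 to 0.34, and its sign turned in 3 of the 6 fits that dropped an animal.

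*Hbegf* (chr18:36504927-36515805, minus strand) had the largest called change of the set. Its levels in GFPiSMC libraries were 101.0, 75.7, and 63.3 CPM in the ascending/arch and 98.1, 105.0, and 58.7 CPM in the descending segment, in the order of replicates 1 to 3. The Tgfbr1/2iSMCKO levels were 26.8, 34.4, and 31.8 CPM in the ascending/arch and 28.7, 22.8, and 23.8 CPM in the descending libraries. Every Tgfbr1/2iSMCKO library lay below every GFPiSMC library. *Hbegf* fell by 1.58 on the log2 scale (SE 0.18, 95% CI −1.97 to −1.19, adjusted p = 0.000138). With counts summed per animal the log2 difference was −1.57 (SE 0.21, adjusted p = 0.00845), and across the fits that dropped 1 animal it stayed between −1.77 and −1.45 with adjusted p between 0.00014 and 0.00329 by edgeR.

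Both libraries of GFPiSMC replicate 3 were the lowest GFPiSMC libraries for *Hbegf*, and they were also low for immediate early genes, which respond to growth factors and to cell isolation. *Fos* was at 18.2 and 21.7 CPM in those libraries and at 93.1 to 222.5 CPM in the other 4 GFPiSMC libraries. Tgfbr1/2iSMCKO replicate 3 had *Fos* at 18.1 and 16.0 CPM. These replicates had similar *Fos* levels but not similar *Ier3* levels. *Ier3* was at 24.95 and 21.82 CPM in GFPiSMC replicate 3 and at 11.98 and 13.12 CPM in Tgfbr1/2iSMCKO replicate 3. *Hbegf* in the same libraries was at 63.3 and 58.7 CPM in GFPiSMC and at 31.8 and 23.8 CPM in Tgfbr1/2iSMCKO. *Egr1* was at 49.0 and 51.8 CPM in GFPiSMC replicate 3, at 100.2 to 144.3 CPM in the other GFPiSMC libraries, and at 39.9 to 71.5 CPM in Tgfbr1/2iSMCKO libraries. The part of this variation in the *Hbegf* difference was not tested.

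Among the 7 genes for EGF receptor ligands, *Hbegf* had the highest level per kb in 6 of 6 GFPiSMC libraries and in 3 of 6 Tgfbr1/2iSMCKO libraries, in the other 3 of which *Btc*, the betacellulin gene, was higher. The share of *Hbegf* in the summed CPM per kb of these ligands was 52.2% ± 8.52 (SD, n = 6 libraries) in GFPiSMC and 35.1% ± 8.68 in Tgfbr1/2iSMCKO libraries, with ranges of 43.5% to 68.0% and 24.4% to 44.7%. The ranges overlapped, and the difference of −17.1 percentage points between animal means had p = 0.1 by the exact permutation test over 3 animals against 3, the smallest it allows. *Btc* took 23.9% ± 9.84 and 42.1% ± 12.0, and *Ereg*, the epiregulin gene, 22.4% ± 6.16 and 20.4% ± 4.33. In the added comparison of segments over 12 libraries, *Btc* was higher in descending libraries by 1.20 on the log2 scale (SE 0.16, adjusted p = 0.00241 by edgeR), and the 3 libraries where it exceeded *Hbegf* were the descending ones. On their own CPM, *Ereg* fell with *Hbegf*, by 1.10 on the log2 scale (SE 0.18, adjusted p = 0.00267), and *Btc* had a log2 difference of −0.10 (SE 0.16, adjusted p = 0.866). On sums per animal *Ereg* was not called (adjusted p = 0.0587).

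**Figure D3:**
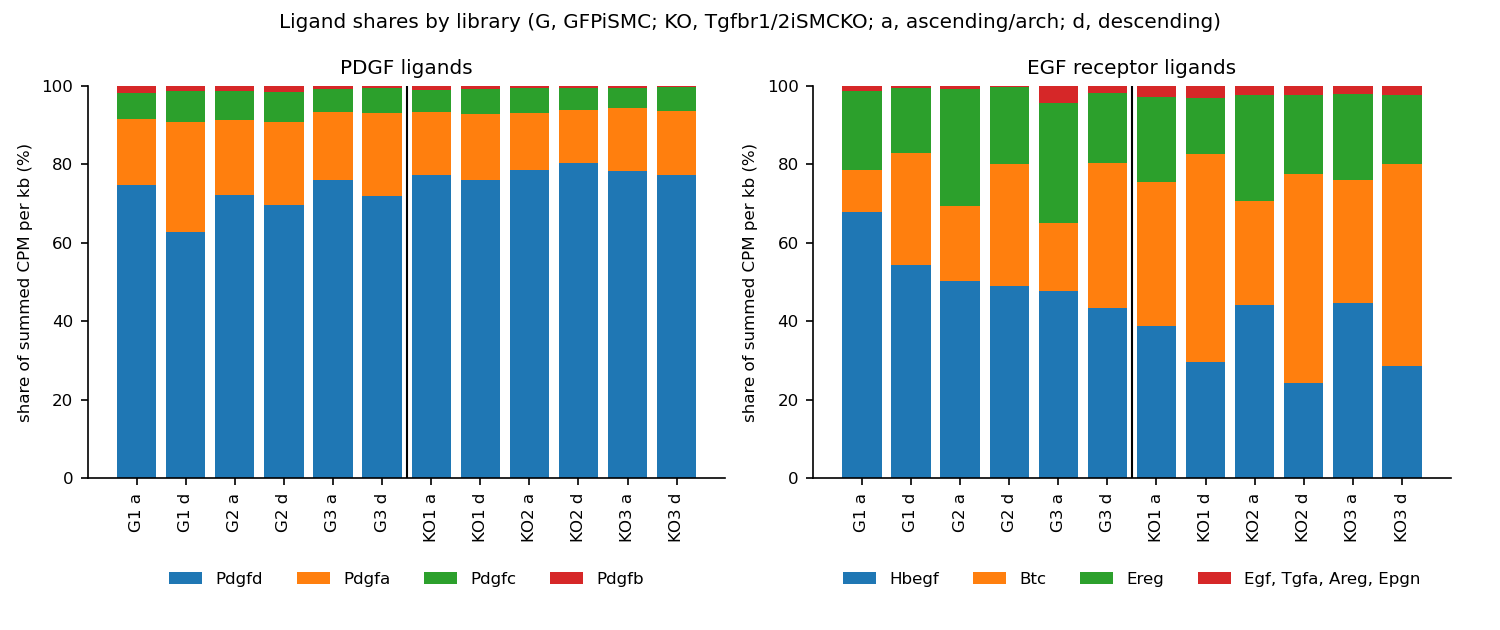
Share in percent of each ligand in the summed CPM per kb of exon of the 4 PDGF ligands (left) and of 7 EGF receptor ligands (right) in each library; G is GFPiSMC, KO is Tgfbr1/2iSMCKO, a is ascending/arch, and d is descending. *Pdgfd* takes 62.8% to 80.5% of the PDGF ligands, and *Hbegf* takes 43.5% to 68.0% in GFPiSMC and 24.4% to 44.7% in Tgfbr1/2iSMCKO libraries.

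All 4 PDGF ligands had genotype differences below 0, and 2 were called. *Pdgfa* (chr5:138976014-138997370, minus strand), which encodes the PDGF A chain, was at 63.4, 78.2, and 69.5 CPM in ascending/arch and 113.4, 74.9, and 84.0 CPM in descending GFPiSMC libraries. Its Tgfbr1/2iSMCKO levels were 50.7, 43.3, and 42.5 CPM in the ascending/arch and 58.5, 43.4, and 48.6 CPM in the descending libraries. No Tgfbr1/2iSMCKO library reached the lowest GFPiSMC library. *Pdgfa* fell by 0.74 on the log2 scale (SE 0.14, 95% CI −1.04 to −0.45, adjusted p = 0.00527), with adjusted p between 0.0156 and 0.0293 by edgeR when animals were left out in turn. With counts summed per animal the log2 difference was again −0.74 (SE 0.16) and the adjusted p was 0.0575. The antisense gene *6330403L08Rik* shares 813 exon bases with *Pdgfa* and was itself at 19.0 to 27.5 CPM in GFPiSMC and 11.8 to 18.0 CPM in Tgfbr1/2iSMCKO libraries. The library kit does not mark strand, so reads in the shared bases cannot be told apart.

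*Pdgfc* (chr3:81036416-81214040, plus strand), which encodes a PDGF chain activated by removal of its CUB domain, was at 41.9, 48.9, and 38.0 CPM in ascending/arch and 51.7, 44.3, and 40.7 CPM in descending GFPiSMC libraries. In Tgfbr1/2iSMCKO libraries it was at 28.3, 31.7, and 22.1 CPM and at 36.0, 28.5, and 29.3 CPM. The highest Tgfbr1/2iSMCKO library lay just below the lowest GFPiSMC library. *Pdgfc* fell by 0.60 on the log2 scale (SE 0.14, 95% CI −0.90 to −0.30, adjusted p = 0.023 by edgeR). The call was lost with counts summed per animal (adjusted p = 0.173), with library size alone as the scale (adjusted p = 0.0722), and with no filter beyond 1 count (adjusted p = 0.0664). It was also lost in 5 of the 6 fits that left out an animal (adjusted p from 0.0495, without GFPiSMC replicate 3, to 0.123, without GFPiSMC replicate 1).

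The start regions of the PDGF ligands called lower, *Pdgfa* and *Pdgfc*, are shown beside that of *Pdgfd*, the ligand with the highest level, which was not called. Each sequence runs from 250 bases before to 50 bases after a RefSeq start on GRCm38.p6. Capitals mark matches on either strand to GGGCGG (the GC box of Sp and KLF factors), CAGACA (a SMAD-binding CAGA element), TGANTCA (AP-1), GCGTGGG (the Egr core), or the CArG box of SRF.
Pdgfa, chr5:138994895-138995194, minus strand: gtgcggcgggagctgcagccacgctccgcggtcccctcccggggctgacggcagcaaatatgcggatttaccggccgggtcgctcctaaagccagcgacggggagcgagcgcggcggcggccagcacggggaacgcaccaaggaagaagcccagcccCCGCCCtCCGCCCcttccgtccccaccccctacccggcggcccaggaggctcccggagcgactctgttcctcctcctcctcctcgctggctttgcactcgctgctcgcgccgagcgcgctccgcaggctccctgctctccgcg
Pdgfa, chr5:138994232-138994531, minus strand: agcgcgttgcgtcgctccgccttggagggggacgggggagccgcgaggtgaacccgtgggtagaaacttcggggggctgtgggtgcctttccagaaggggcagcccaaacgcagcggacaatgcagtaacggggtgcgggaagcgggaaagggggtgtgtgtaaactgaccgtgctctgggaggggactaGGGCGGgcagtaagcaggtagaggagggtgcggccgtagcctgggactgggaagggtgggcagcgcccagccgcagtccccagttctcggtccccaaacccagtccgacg
Pdgfc, chr3:81036166-81036465, plus strand: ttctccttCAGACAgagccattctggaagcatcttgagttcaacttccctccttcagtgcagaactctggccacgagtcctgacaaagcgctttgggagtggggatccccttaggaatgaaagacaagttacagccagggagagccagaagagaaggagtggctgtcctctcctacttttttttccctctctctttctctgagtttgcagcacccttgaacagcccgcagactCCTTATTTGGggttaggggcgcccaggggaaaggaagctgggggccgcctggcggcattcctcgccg
Pdgfd, chr9:6168236-6168535, plus strand: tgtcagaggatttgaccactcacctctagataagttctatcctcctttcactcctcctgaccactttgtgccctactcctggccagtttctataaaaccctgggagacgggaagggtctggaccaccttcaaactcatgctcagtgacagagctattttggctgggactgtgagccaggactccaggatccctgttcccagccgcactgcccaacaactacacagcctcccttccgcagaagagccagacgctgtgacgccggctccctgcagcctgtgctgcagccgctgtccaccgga
The GC box occurred 2 times in the first and 1 time in the second *Pdgfa* sequence, and in 35.7% of the 32851 promoters of the table. The *Pdgfc* sequence held 1 CAGA element, a match found in 21% of all promoters, and 1 CArG box, found in 1.63%. AP-1 and Egr core matches, found in 7.81% and 5.04% of all promoters, were in none of the 4 sequences, and the *Pdgfd* sequence held none of the 5 motifs. GC content was 73.3% and 67.0% for the *Pdgfa* sequences, 55.0% for *Pdgfc*, and 56.7% for *Pdgfd*, against a median of 52.7% over all promoters. A match is a description of the sequence and does not show a bound site.

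*Pdgfb* (chr15:79995874-80014977, minus strand), which encodes the PDGF B chain, had low counts, from 44 to 227 per library. It was at 8.32, 6.32, and 3.76 CPM in ascending/arch and 7.75, 7.33, and 2.25 CPM in descending GFPiSMC libraries, and at 3.71, 2.13, and 2.09 CPM and 3.77, 2.85, and 1.48 CPM in Tgfbr1/2iSMCKO libraries. GFPiSMC replicate 3 was again the lowest of its genotype in both segments, and both its libraries lay inside the Tgfbr1/2iSMCKO range. The log2 difference of −1.16 (SE 0.35, 95% CI −1.91 to −0.40) did not pass the test (adjusted p = 0.0847). It passed by DESeq2 (adjusted p = 0.015) and by edgeR without GFPiSMC replicate 3 (log2 difference −1.47, adjusted p = 0.0207), and it was not called on sums per animal (adjusted p = 0.317).

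*Pdgfd* (chr9:6168584-6378850, plus strand), which encodes the other CUB-domain PDGF chain, was at 284.3, 297.3, and 307.4 CPM in ascending/arch and 257.0, 250.0, and 287.8 CPM in descending GFPiSMC libraries. In Tgfbr1/2iSMCKO libraries it was at 242.4, 238.6, and 211.8 CPM and at 267.3, 262.1, and 231.6 CPM. The genotypes were apart in the ascending/arch libraries and overlapped in the descending libraries. Over 12 libraries the log2 difference was −0.21 (SE 0.09, 95% CI −0.41 to −0.01), with an unadjusted p of 0.0414 and an adjusted p of 0.279 by edgeR. As a share of the 4 PDGF ligands per kb, *Pdgfd* took 71.2% ± 4.71 (SD, n = 6 libraries) in GFPiSMC and 78.0% ± 1.53 in Tgfbr1/2iSMCKO libraries. *Pdgfa* took 20.6% ± 4.04 and 15.6% ± 1.32, *Pdgfc* 6.96% ± 0.787 and 5.82% ± 0.552, and *Pdgfb* 1.16% ± 0.493 and 0.644% ± 0.189. The exact permutation test over animals gave p = 0.1 for the shares of *Pdgfd*, *Pdgfa*, and *Pdgfc* and p = 0.3 for that of *Pdgfb*, each adding up to 100% with the others.

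*Fgf2* (chr3:37348346-37410108, plus strand), which encodes basic FGF, was set apart by its spread between libraries of the same group. Its counts in GFPiSMC libraries were 2175, 287, and 423 in the ascending/arch and 187, 1532, and 2229 in the descending segment. In Tgfbr1/2iSMCKO libraries they were 1565, 4, and 1244 and 15, 8, and 2043. High and low libraries occurred in all 4 groups, and the 2 segments of 1 animal could differ widely, as in GFPiSMC replicate 1 and Tgfbr1/2iSMCKO replicate 1. The highest count in a group was 7.58, 11.9, 391.0, and 255.0 times the lowest, whereas for the other 9 genes the largest such ratio was 3.73, for *Pdgfb*. Of the 4769 tested genes with at least the mean count of *Fgf2*, 4, *Fgf2* included, had a largest ratio of at least this size. The others, chosen after their values were seen, were *Ip6k1*, *Lrrc8a*, and *Gm20716*.

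The genes that share exon bases with *Fgf2* had counts of 322 or less. *Nudt6*, which lies on the opposite strand and shares 640 exon bases with *Fgf2*, had 133 to 322 counts. *Gm43439*, which shares 255 bases on the same strand, had 0 to 2 counts. The antisense gene *Fgf2os*, whose exons share no bases with those of *Fgf2*, had 10 to 96 counts. The log2 difference of *Fgf2* between genotypes was −0.64 with an SE of 1.16 and a 95% CI from −3.15 to 1.86 (adjusted p = 0.885), so changes of several-fold in either direction lay within the interval. It moved to −0.05 without Tgfbr1/2iSMCKO replicate 2 and to −2.51 without Tgfbr1/2iSMCKO replicate 3, and it was −2.32 by limma-voom and −1.69 with the replicate number as a block, with adjusted p of 0.562 or more in every fit. The cause of the spread was not tested, and a group mean of *Fgf2* does not convey it.

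Within the ascending/arch segment, *Hbegf* was the 1 member called (log2 difference −1.37, SE 0.25, adjusted p = 0.0167), against 1.01% of all genes called lower. That call was lost without any of the animals other than GFPiSMC replicate 3, with adjusted p from 0.0614, without Tgfbr1/2iSMCKO replicate 2, to 0.138, without GFPiSMC replicate 1. In the descending segment *Hbegf* was again the 1 member called (log2 difference −1.80, SE 0.25, adjusted p = 0.00291), against 1.21% of all genes, and *Pdgfa* had a log2 difference of −0.86 (SE 0.20, adjusted p = 0.0529 by edgeR and 0.00385 by DESeq2). All 3 Tgfbr1/2iSMCKO libraries lay below all 3 GFPiSMC libraries for 5 members in the ascending/arch segment (*Hbegf*, *Pdgfa*, *Pdgfb*, *Pdgfc*, and *Pdgfd*) and for 3 in the descending segment (*Hbegf*, *Pdgfa*, and *Pdgfc*). Among all genes this held for 10.1% and 7.75%. In the other direction, the Tgfbr1/2iSMCKO libraries all lay above the GFPiSMC libraries for *Pdgfra* in the ascending/arch segment. The ranges were 15.8 to 21.7 CPM and 11.9 to 15.7 CPM, and *Pdgfra* was not called (adjusted p = 0.689 by edgeR). The share of all genes in that direction was not counted.

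The genotype effect was not shown to differ between segments for any member. The difference of the effects was −0.43 for *Hbegf* (SE 0.35, 95% CI −1.19 to 0.33) and −0.23 for *Pdgfa* (SE 0.28, 95% CI −0.83 to 0.38), with an adjusted p of 1.0 for all 10 genes by edgeR, and none was under 0.05 before adjustment. Among all genes, 0 of 22320 (0.0%) were called by edgeR, 659 had an unadjusted p under 0.05, and DESeq2 called 11.

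Between segments, *Pdgfra* was lower in the descending than in the ascending/arch library of 6 of 6 animals, which 3.39% of all genes were. Its mean was 16.5 CPM ± 3.27 (SD, n = 6) in ascending/arch and 8.97 CPM ± 1.95 in descending libraries, and the ranges, 11.9 to 21.7 CPM and 7.08 to 12.3 CPM, overlapped. Over 12 libraries the log2 difference was −0.87 (SE 0.19, 95% CI −1.28 to −0.47), with an adjusted p of 0.0518 by edgeR and of 0.000244 by DESeq2. This comparison was added after the data were seen, and 0.578% of all genes were called lower in it by edgeR. Neither fit carried an animal term. With an animal block, the log2 difference of *Pdgfra* over 12 libraries was −0.885 (SE 0.169, adjusted p = 0.067 by edgeR). Within GFPiSMC the log2 difference was −0.74 (SE 0.27, adjusted p = 0.66), and within Tgfbr1/2iSMCKO it was −1.0 (SE 0.27, adjusted p = 0.429 by edgeR and 0.0259 by DESeq2). No member was called within either genotype by edgeR, where 0.376% of all genes in GFPiSMC and 0.112% in Tgfbr1/2iSMCKO were called, and 1 member, *Pdgfra* in both, had an unadjusted p under 0.05.

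*Pdgfra* is itself a fibroblast marker, and the summed level of the other 11 fibroblast markers moved with it between segments. Their summed level was 246.5, 220.1, and 271.0 CPM in ascending/arch and 93.3, 91.3, and 102.6 CPM in descending GFPiSMC libraries. In Tgfbr1/2iSMCKO libraries it was 268.1, 207.3, and 126.8 CPM and 62.9, 32.5, and 67.9 CPM. It was thus higher in the ascending/arch library of every animal, by 1.87 to 6.39 times, against 1.35 to 2.33 times for *Pdgfra*. Of the 11 listed fibroblast markers that were tested, *Pdgfra* included, 5 were called lower in descending libraries and 0 higher: *Lum* (log2 difference −4.30), *Fbln1* (−4.17), *Scara5* (−2.02), *Cd34* (−1.35), and *Dcn* (−2.30). In all, 9 of the 11 were below 0, and *Serpinf1* (0.80, adjusted p = 0.602) and *Ly6a* (0.79, adjusted p = 0.999) were above 0. No fibroblast marker was at 0 counts in all libraries of any group. The part of fibroblast RNA in the *Pdgfra* difference was not tested.

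**Figure D4:**
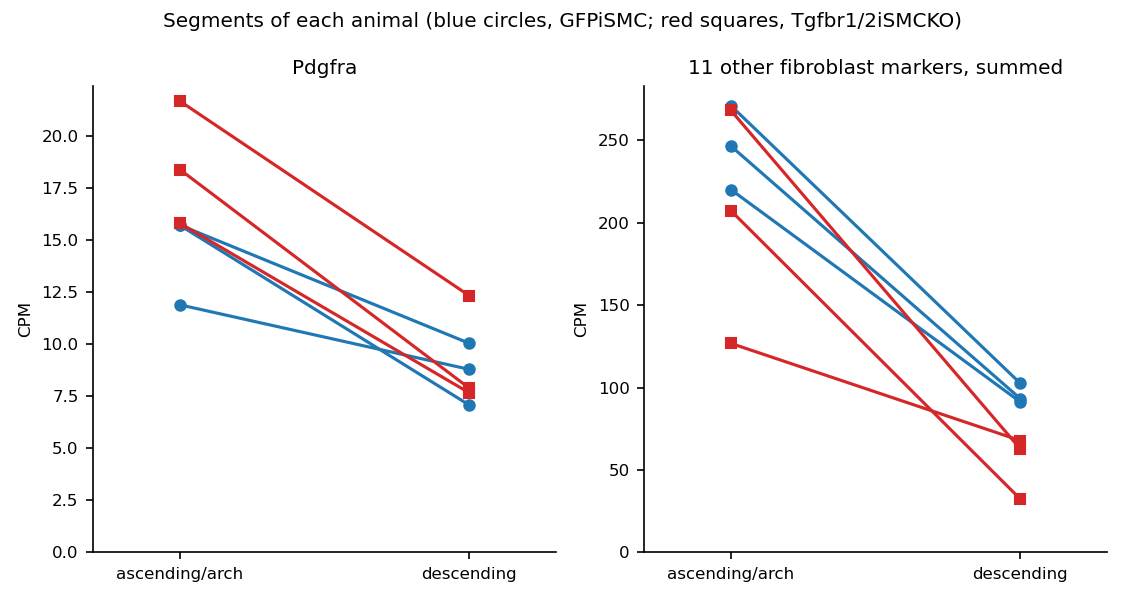
*Pdgfra* (left) and the sum of the 11 other fibroblast markers (right), in CPM, in the ascending/arch and descending libraries of each animal, joined by a line; blue circles are GFPiSMC and red squares Tgfbr1/2iSMCKO. Both are lower in the descending library of all 6 animals.

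Beyond the 10 genes, 4 lists of other genes of these pathways were read in the genotype comparison over 12 libraries, in which 3.23% of all genes were called lower and 1.8% higher at a median log2 difference of 0.04. Of the 23 other mitogen ligands, 19 were tested, 2 were lower and 1 was higher, with a median log2 difference of −0.21. *Fgf14* fell by 2.53 on the log2 scale (SE 0.20, adjusted p = 4.99e-06). It belongs to the intracellular FGF homologous factors, which act on sodium channels and not as secreted mitogens. *Fgf11*, *Fgf12*, and *Fgf13* of this list belong to the same family, so the counts and median of the list do not describe secreted mitogens alone. *Ereg* was the other lower gene, and *Egf* rose by 1.18 (SE 0.31, adjusted p = 0.0464) at a mean of 0.88 CPM in GFPiSMC and 2.10 CPM in Tgfbr1/2iSMCKO libraries. *Fgf1*, the ligand of this list with the highest level in GFPiSMC libraries (22 CPM per kb), had a log2 difference of 0.26 (SE 0.17, adjusted p = 0.536).

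Of the 10 other receptors, 9 were tested and 1 was lower, against 3.23% of all genes, with a median of −0.09. *Erbb4*, a neuregulin and HB-EGF receptor, fell by 1.38 (SE 0.26, adjusted p = 0.00689), from a range of 8.47 to 26.8 CPM to one of 4.02 to 11.1 CPM. *Fgfr2* had the highest level of this list, 15.1 CPM per kb in GFPiSMC libraries, and a log2 difference of −0.18 (SE 0.09, adjusted p = 0.357). Of 20 genes for ligand release and co-receptors, 19 were tested and 2 were lower, against the same 3.23%, with a median of −0.35. *Pcsk5*, a proprotein convertase, fell by 2.65 (SE 0.23, adjusted p = 9.51e-06), and *Sdc4*, a heparan sulfate proteoglycan that binds FGFs and HB-EGF, fell by 0.64 (SE 0.10, adjusted p = 0.00234). *Cd9*, a tetraspanin partner of pro-HB-EGF and the gene of this list with the highest level (940.0 CPM per kb), had a log2 difference of −0.01 (SE 0.14, adjusted p = 0.986). The HB-EGF shedding proteases *Adam10* and *Adam17* had log2 differences of −0.02 and 0.04 and were not called (adjusted p of 0.987 and 0.936).

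Of 28 ERK feedback inhibitors and targets, 26 were tested, 3 were lower and 1 was higher, against 3.23% and 1.8% of all genes, with a median of −0.42. The lower genes restrain receptor signalling: *Errfi1*, an inhibitor of the EGF receptor kinase (log2 difference −1.05, SE 0.20, adjusted p = 0.00768), *Spry1*, a Sprouty protein (−1.06, SE 0.26, adjusted p = 0.0282), and *Cbl*, a ubiquitin ligase for activated receptors (−1.16, SE 0.31, adjusted p = 0.0467). *Etv5*, an ETS factor induced by FGF signalling, rose by 1.57 (SE 0.23, adjusted p = 0.000982) and was at 3.29 to 7.17 CPM in GFPiSMC and 11.0 to 19.7 CPM in Tgfbr1/2iSMCKO libraries. *Fos*, with the highest level of this list in GFPiSMC libraries (50.8 CPM per kb), had a log2 difference of −1.29 (SE 0.62, adjusted p = 0.332).

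Of the 10 genes called in the 4 lists, *Fgf14*, *Pcsk5*, *Etv5*, and *Cbl* were also called on sums per animal (adjusted p of 0.00136, 0.0023, 0.0307, and 0.0497). With library size alone as the scale, which moved the median log2 difference of all genes from 0.04 to 0.16, *Cbl* was not called (adjusted p of 0.0709), and the median of the receptor list turned positive (0.04) while those of the ligand, release, and feedback lists stayed below 0.

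**Figure D5:**
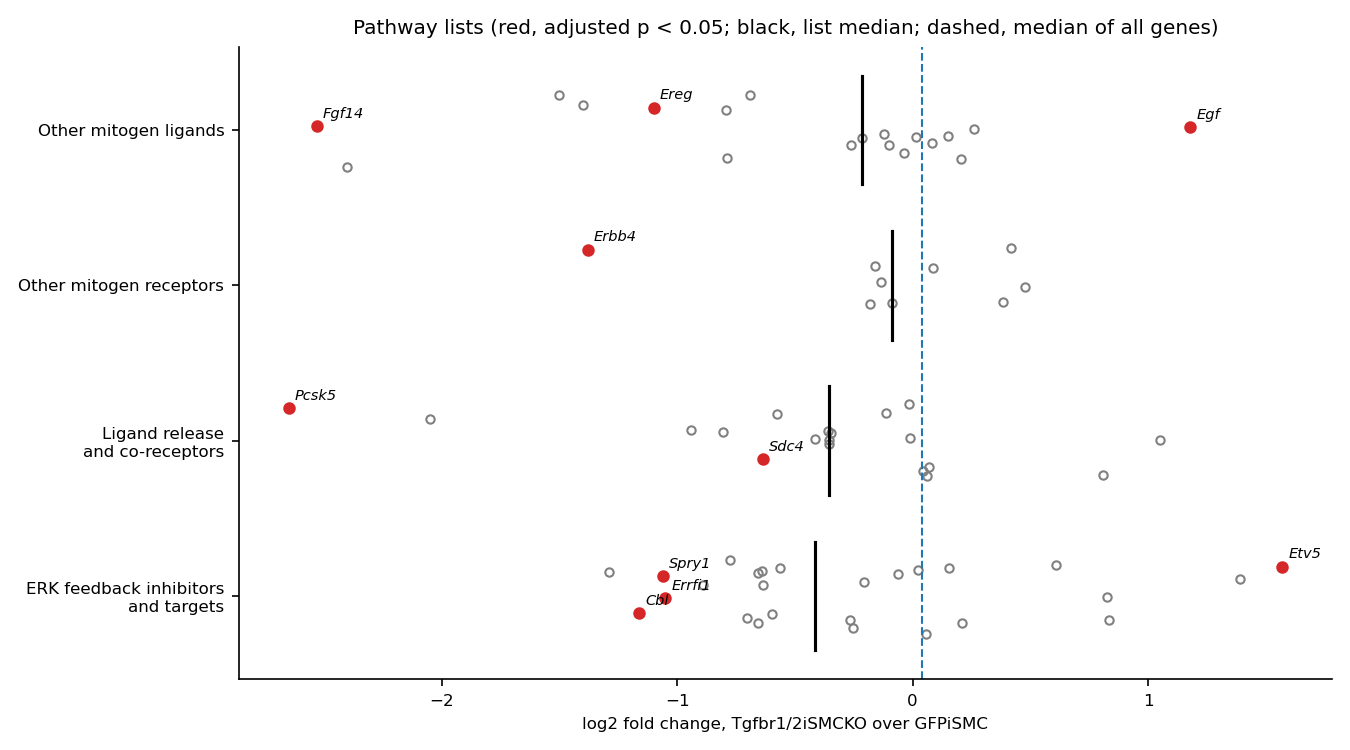
Log2 fold change of Tgfbr1/2iSMCKO over GFPiSMC for every tested gene of the 4 pathway lists, over 12 libraries; red points have an adjusted p under 0.05, black bars are list medians, and the dashed line is the median of all genes. The list medians are −0.21, −0.09, −0.35, and −0.42 from top to bottom, and 10 genes are called.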

How the data were processed

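The authors trimmed reads with Trim Galore, aligned them with HISAT2 to GRCm38, and assembled and quantified them with StringTie on GENCODE M15 gene models. The deposited values are whole-number counts per gene for each of the 12 libraries, not normalized, and how counts were derived from StringTie output is not given in the sources used here. The library kit does not mark strand. Symbols and coordinates were taken from GENCODE M21 on GRCm38, which held 52489 of the 52636 gene identifiers, and start sequences from RefSeq on GRCm38.p6.

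Counts were filtered with filterByExpr, which left 22320 genes, scaled by TMM, and tested by edgeR 4.0.16 (R 4.3.3) with the quasi-likelihood test. Genotype was fitted with segment over 12 libraries, and per-segment effects and their difference were fitted over 4 groups. Genes were called at a Benjamini-Hochberg adjusted p under 0.05 over all genes tested, and the study's rule of more than 2-fold was set beside it. CPM used TMM library sizes. Exact permutation tests, two-sided, compared 3 animals with 3. Alternatives were DESeq2 1.42.0, other scalings and filters, counts summed per animal, limma 3.58.1 (voom, animal as random effect), a replicate block, and each animal left out. The scripts were tested on simulated data.

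All 10 genes were named, and of each pathway list the called genes (up to 5 by p) and the gene with the highest level per kb. *Btc*, *Adam10*, *Adam17*, *Egr1*, *Ier3*, *Fgf2os*, the marker genes, and the genes overlapping members were named after their values were seen. The members and lists were chosen with earlier results of these data known. The labels give which libraries share an animal, and the counts of animals between segments pair them. The segment tests carried no animal term, except where an animal block is named. Deviations from the group means correlated within animals at 0.187, −0.242, and 0.024 in GFPiSMC and 0.0612, 0.377, and 0.661 in Tgfbr1/2iSMCKO, and an animal block changed no call of a member. The fits over 12 libraries without an animal term treat the 2 libraries of an animal as independent, and their p-values measure the spread between libraries. The p-values on sums per animal and of the permutation tests measure the spread between animals. A list of adaptor and kinase genes is not reported here.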

Additional observations from a re-analysis of the deposited data

Results flagged for a closer look

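*Pdgfd* was singled out because its difference between segments pointed in opposite directions in the genotypes, with every animal of a genotype alike. The fitted segment effects of *Pdgfrb*, *Pdgfb*, *Fgfr1*, *Fgf2*, *Egfr*, and *Hbegf* also had opposite signs in the genotypes, but their animals were not all alike. *Pdgfd* was lower in the descending library of 3 of 3 GFPiSMC animals (log2 difference −0.16, SE 0.13) and higher in that of 3 of 3 Tgfbr1/2iSMCKO animals (0.14, SE 0.13). The difference of these effects was 0.297 on the log2 scale (SE 0.18, 95% CI −0.09 to 0.68), with an unadjusted p of 0.12 and an adjusted p of 1.0 by edgeR, so it did not pass the test.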

How the results depend on the processing

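Of the 3 members called over 12 libraries, 1 was called with counts summed per animal. In the ascending/arch segment, 0 to 1 members were called when animals were left out. DESeq2 called 2 members in the descending segment, 1 between segments in Tgfbr1/2iSMCKO, and 1 between segments over 12 libraries. For all genes, the genotype effect over 12 libraries gave 1123 calls, against 1915 by DESeq2, 451 with summed counts, and 622 to 1066 without 1 animal. The ascending/arch effect gave 315, against 839 by DESeq2 and 128 to 240 without 1 animal, and the descending effect 385, against 869, 150 with that segment fitted alone, and 136 to 330 without 1 animal. The difference of effects gave 0, against 11 by DESeq2 and 0 to 3 without 1 animal (3 without GFPiSMC replicate 3). The segment effect gave 84 in GFPiSMC, against 271 and 6 to 27, then 25 in Tgfbr1/2iSMCKO, against 163 and 5 to 19, and 178 over 12 libraries, against 375 and 84 to 146.

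Signs reversed for differences near 0 or with wide spread. With library size alone as the scale, *Pdgfrb* (0.0254) and *Egfr* (0.0062) in the ascending/arch and *Pdgfd* (0.0838) in the descending segment turned positive. With animals left out, *Egfr* ranged from −0.0537 to 0.14 over 12 libraries and from −0.00247 to 0.30 in the descending segment, *Pdgfra* from −0.15 to 0.23 there, *Pdgfrb* from −0.35 to 0.16 and *Fgf2* from −0.81 to 1.21 in the ascending/arch segment, and the difference of effects for *Pdgfa* from −0.43 to 0.0316. The cause was not tested. With library size only, 41.9% of the genotype calls were lower, against 64.2% with TMM and 56.7% by DESeq2. Equal replicate numbers across genotypes do not mark a shared animal, since the genotypes are different mice. Deviations from the group means correlated at −0.527 to 0.216 between such libraries, a range that overlaps that within animals. With the replicate block the genotype effect over 12 libraries gave 994 calls and 4 members, the fourth being *Pdgfb* (−1.10, adjusted p = 0.0211 by edgeR). Of 150 values for single members and settings in that comparison, 135 kept their direction and side of the threshold. *Pdgfb* rested on 44 to 227 counts per library and differed by up to 3.73 times between libraries of a group.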
